A study of Homo sapiens with 12 samples.

Results

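The 9 genes described here encode netrins (*NTN1*, *NTN4*), repulsive guidance molecules (*RGMA*, *RGMB*) and their receptors of the UNC5 (*UNC5A*, *UNC5B*, *UNC5C*) and DCC and neogenin (*DCC*, *NEO1*) families, out of 23705 genes in the count table. They were taken by name from the guidance system to which *UNC5C* and *RGMA* belong, and these 2 genes were selected on their counts with RGZ against vehicle, where both were lower. Their values in that comparison are therefore given as a description, and the same holds for every comparison that uses the RGZ or the vehicle libraries. RNA was sequenced from A375 cells, an established line from a human metastatic melanoma, after 24 h with the DMSO vehicle, with 5 μM of rosiglitazone (RGZ), with 2 μM of T0070907, or with 5 μM of RGZ and 2 μM of T0070907 together (the combination). RGZ activates the nuclear receptor PPARγ, T0070907 is an antagonist of the same receptor, and the study added the antagonist to tell changes that depend on PPARγ from other effects of RGZ. Each condition had 3 libraries, 1 from each of 3 independent experiments on the same line, and all 12 libraries had total counts between 8319455 and 11375227.

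Netrins are secreted proteins related to laminins that guide growing axons and migrating cells. They attract through DCC and neogenin and repel through UNC5 receptors, and DCC, neogenin and the UNC5 receptors are known as dependence receptors, which can start cell death when no ligand is bound. Repulsive guidance molecules are anchored in the membrane, bind neogenin, and also act as co-receptors for bone morphogenetic proteins (BMPs). Melanocytes come from the neural crest, a migrating population of the embryo in which guidance receptors act.

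Of the melanoma markers, *SOX10* (from 1558 to 4984 counts per library) and *MITF* (from 240 to 666) were abundant in all 12 libraries, and so were *AXL* and *NGFR*, which mark dedifferentiated and neural crest states. The pigment genes of the melanocyte were low, with 0 counts of *TYR* in all libraries, 1 count of *DCT* in total and at most 6 counts of *MLANA*, 13 of *TYRP1* and 13 of *PMEL* in a library, and of these only *PMEL* passed the filter on low counts. With the experiment as a term of the model, 2 of the 4 melanoma markers tested, *MITF* (log2 fold change -0.34) and *S100B* (-1.02), and 2 of the 3 neural crest and dedifferentiation markers, *NGFR* (-1.18) and *AXL* (-0.22), were called lower with RGZ than with vehicle in edgeR, as *UNC5C* and *RGMA* were, beside 9.3% of all genes called in that fit, and 0 of them were called in edgeR without that term. *S100B* was at 25.7 ± 11.8 CPM (counts relative to the library total, scaled by edgeR's TMM method; SD, n = 3) with vehicle and 12.9 ± 7.95 with RGZ, and *NGFR* at 198 ± 93.6 and 92.9 ± 60.7 CPM. In the same fit, *S100B* was called higher with T0070907 than with vehicle (0.59), beside 0.91% of all genes called. *MITF* (0.27), *S100B* (1.34) and *NGFR* (0.94) were called higher in the combination than with RGZ alone, beside 11.4% of all genes. The part of these markers in the results was not tested. The 5 PPARγ targets fixed as a check of the agonist (*ANGPTL4*, *FABP4*, *PLIN2*, *PDK4* and *CPT1A*) were all called higher with RGZ than with vehicle in edgeR. Of the markers of other cell types, the keratinocyte genes *KRT5* and *KRT14* summed to between 14.3 and 33.4 CPM with vehicle and between 6.51 and 16.6 CPM with RGZ. The neuron list summed to between 2.50 and 6.07 CPM with vehicle and between 2.81 and 12.3 CPM with RGZ, and the leukocyte list to between 35.5 and 73.8 CPM and between 49.6 and 97.3 CPM, with nearly all of it in *CD68*. With the experiment as a term, *KRT14* (lower), *SNAP25* (higher) and *CD68* (higher) were called for RGZ against vehicle, beside 9.3% of all genes. All 3 were called the other way for the combination against RGZ (1.10, -0.82 and -0.39), beside 11.4% of all genes. Their part in the results was not tested. The fibroblast and endothelial lists stayed at or below 10.1 CPM in every library and had no called gene in any comparison.

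Per kilobase of the longest annotated transcript, the vehicle libraries ranked the 9 genes from *RGMB* (7.85 ± 1.01 CPM per kb, SD, n = 3) through *NTN4* (2.98 ± 0.434) and *NEO1* (2.25 ± 0.762) to *UNC5B* (0.386 ± 0.110), *UNC5C* (0.236 ± 0.118), *NTN1* (0.170 ± 0.0605), *RGMA* (0.143 ± 0.0534), *DCC* (0.0309 ± 0.0443) and *UNC5A* (0.0101 ± 0.0174). The ranges of *NTN4* and *NEO1* overlapped, and so did those of each neighbouring pair from *UNC5B* to *RGMA*, and of *DCC* and *UNC5A*, so their order within these stretches does not go beyond the spread. *RGMB* stood at the middle of the 12906 tested genes with an annotated length, with 49.8% of them at its level per kilobase or lower, whereas 2.05% were as low as *UNC5C* and 0.659% as low as *RGMA*. *UNC5C* and *RGMA* are thus described here from few reads, and *NEO1*, *RGMB* and *NTN4* from many.

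**Figure D1:**
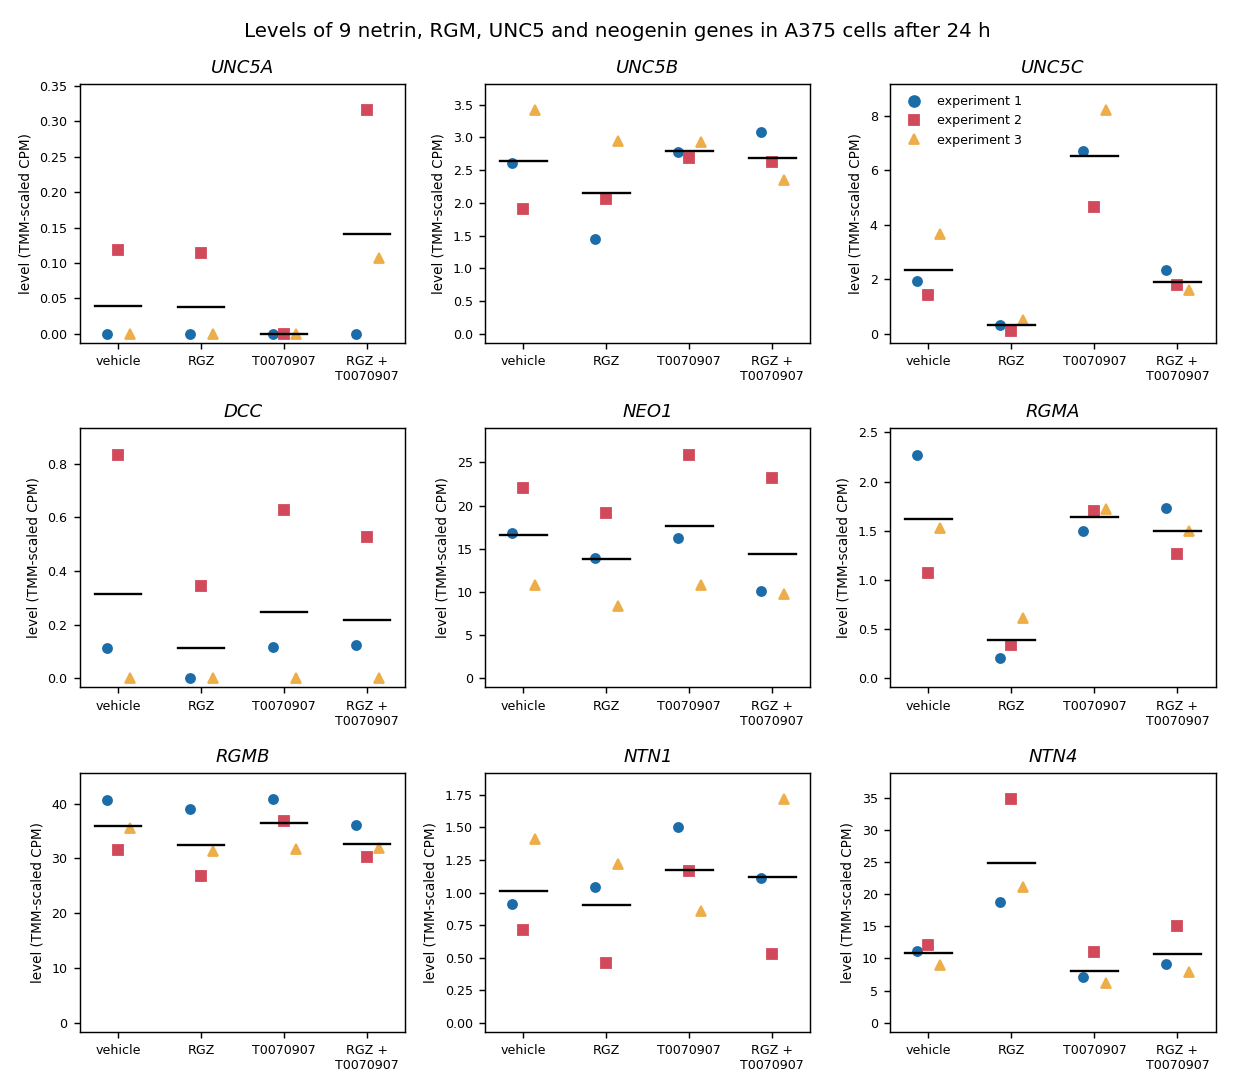
Levels of the 9 genes in TMM-scaled CPM (vertical axis, linear, 1 scale per gene) in each of the 12 libraries, by treatment (horizontal axis). Symbols are the 3 experiments and bars the means of 3 libraries. *UNC5C* and *RGMA* are lowest with RGZ alone, and *NTN4* is highest there. In *NEO1* and *DCC* the libraries of experiment 2 lie above all others, and *DCC* rests on 25 counts in all.

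*UNC5C*, a receptor through which netrins repel (chromosome 4, from 95162504 to 95549206 on the minus strand of GRCh38), had 17, 12 and 31 counts in experiments 1, 2 and 3 with vehicle. With RGZ it had 3, 1 and 5 counts, with T0070907 58, 52 and 95 counts, and with the combination 19, 17 and 15 counts. The RGZ libraries were below all others, the T0070907 libraries were above all others, and the vehicle and combination libraries overlapped. In CPM the means were 2.34 ± 1.16 for vehicle, 0.311 ± 0.197 for RGZ, 6.51 ± 1.77 for T0070907 and 1.91 ± 0.386 for the combination (SD, n = 3). The summed counts of the RGZ libraries were 7.32-fold lower than those of vehicle, with a 95% exact interval from 3.61 to 16.8 that covers counting error only. A floor of 3 counts, taken here as the limit of detection, was reached by 2 of the 3 RGZ libraries and not by the one with 1 count.

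The comparison of the combination with T0070907 alone shares no library with the one on which *UNC5C* was picked, though it shares the estimate of the spread. In it, *UNC5C* differed by a log2 fold change of -1.77 (SE 0.36), a 3.40-fold lower level, and was lower in 3 of 3 experiments. Its adjusted p was 0.214 in edgeR over all 13522 genes tested (unadjusted 4.13e-04), and 2.20e-04 with the experiment added to the model, where the log2 fold change was -1.76 (SE 0.23). Thus *UNC5C* was lower with RGZ in the presence of T0070907 in the fit that compares libraries within an experiment, and missed the threshold of 0.05 in the fit that does not. The summed counts were 3.44-fold lower, with a counting interval from 2.52 to 4.78. Without T0070907 the log2 fold change with RGZ was -2.83 (SE 0.51). That value is the one on which the gene was selected, so no difference between both changes is read from it.

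With T0070907 alone, *UNC5C* stood at a log2 fold change of 1.48 (SE 0.36) against vehicle and was higher in 3 of 3 experiments. This comparison uses the vehicle libraries on which the gene was picked, so the value is a description with no test.

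The other UNC5 receptors showed no called change. *UNC5B*, which responds to netrins and is known from blood vessels, had 23, 16 and 29 counts with vehicle, 14, 18 and 29 under RGZ, 24, 30 and 34 under T0070907 and then 25, 25 and 22 with both compounds, and all 4 conditions overlapped. Its log2 fold change was -0.29 with RGZ (95% interval from -0.93 to 0.34) and -0.06 with RGZ in the presence of T0070907 (from -0.67 to 0.55), and it was called in no comparison. *UNC5A* had 6 counts in all 12 libraries together, at most 3 in one, and did not pass the filter on low counts. As levels per kilobase within a library, *UNC5C* was between 0.512 and 0.741 times as abundant as *UNC5B* with vehicle, between 0.0385 and 0.148 times with RGZ, between 1.20 and 1.94 times with T0070907 and between 0.471 and 0.526 times with the combination. *UNC5C* therefore exceeded *UNC5B* per kilobase in all 3 T0070907 libraries and in none of the other 9. This order depends on the longest annotated transcripts, of 9875 bases for *UNC5C* and 6841 for *UNC5B*. In counts, *UNC5C* was also above *UNC5B* in the vehicle library of experiment 3 (31 against 29).

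**Figure D2:**
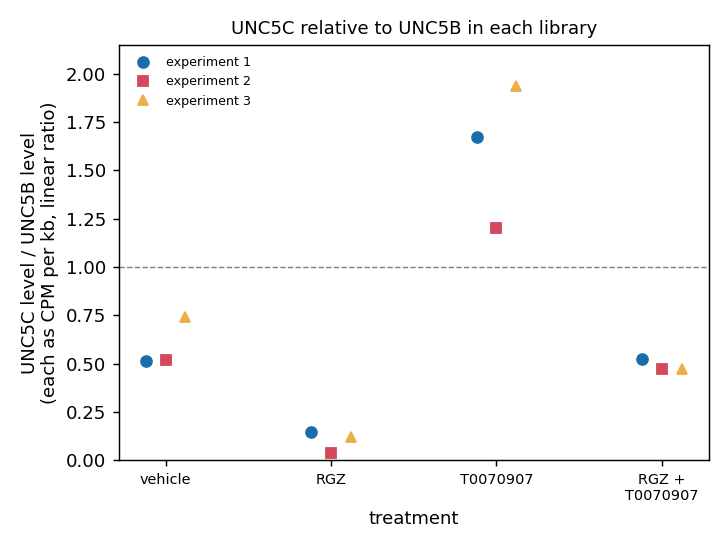
Level of *UNC5C* divided by that of *UNC5B*, each in CPM per kilobase (vertical axis, linear ratio from 0), in each library by treatment (horizontal axis). Symbols are the 3 experiments and the dashed line marks equal levels; the 3 T0070907 libraries lie between 1.20 and 1.94, above the line, and the RGZ libraries between 0.0385 and 0.148.

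*RGMA*, a ligand of neogenin and BMP co-receptor (chromosome 15, from 93035273 to 93089204 on the minus strand of GRCh38), had 20, 9 and 13 counts with vehicle, 2, 3 and 6 under RGZ, 13, 19 and 20 under T0070907 and then 14, 12 and 14 with both compounds. The RGZ libraries were below those of each other condition, and the other 3 conditions overlapped. Mean levels were 1.62 ± 0.606 CPM for vehicle, 0.386 ± 0.204 for RGZ, 1.64 ± 0.122 for T0070907 and 1.50 ± 0.234 for the combination (SD, n = 3), and the summed counts with RGZ were 4.19-fold lower than with vehicle (counting interval from 2.12 to 9.03). Against T0070907 alone, the comparison free of the libraries used to pick the gene, the combination gave a log2 fold change of -0.14 (SE 0.34) with an interval from -0.87 to 0.59 and an edgeR adjusted p of 0.893. With RGZ alone, the log2 fold change on which the gene was selected was -2.03 (SE 0.41). A difference between both changes would rest on that selected value and is not read as a result.

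*RGMB*, also a BMP co-receptor (chromosome 5, from 98768650 to 98798643 on the plus strand of GRCh38), was the most abundant of the 9 genes per kilobase in the mean of every condition. It had 359, 265 and 302 counts with vehicle, 376, 235 and 309 under RGZ, 353, 412 and 369 under T0070907 and then 292, 287 and 298 with both compounds. The conditions overlapped in CPM. The log2 fold change with RGZ was -0.15 (95% interval from -0.47 to 0.17), and -0.16 (from -0.47 to 0.16) with RGZ in the presence of T0070907, and *RGMB* was called in no comparison. *RGMB* overlaps *RGMB-AS1* on the opposite strand, which had 151 counts in all 12 libraries, and *UNC5B* overlaps *UNC5B-AS1* with 3 counts. Whether reads were counted by strand is not given in the sources used here, so reads of such overlapping pairs cannot be told apart.

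Neogenin, encoded by *NEO1*, binds both netrins and RGMs. It is encoded on chromosome 15, from 73051710 to 73305206 on the plus strand of GRCh38. *NEO1* had 148, 185 and 92 counts with vehicle, 134, 168 and 83 under RGZ, 141, 289 and 125 under T0070907 and then 82, 221 and 91 with both compounds. The treatments overlapped, and experiment 2 stood apart. All 4 libraries of experiment 2 lay between 19.2 and 25.9 CPM, above the 8 libraries of the other experiments, which lay at or below 16.8 CPM. This separation of experiment 2 was found in 4.94% of all genes tested. The log2 fold change of *NEO1* with RGZ was -0.26 (SE 0.42), or -0.26 (SE 0.13) with the experiment as a term, and was not called (edgeR adjusted p of 0.877 and 0.257). In the presence of T0070907 the change of *NEO1* with RGZ was -0.29 (SE 0.42), or -0.29 (SE 0.13) with that term. It was not called in either fit (edgeR adjusted p of 0.803 and 0.148). *DCC*, the netrin receptor that attracts axons, had 25 counts in all, of which 22 (88%) were in the libraries of experiment 2, while that experiment held 33.4% of all reads. It had 7, 3, 7 and 5 counts there with vehicle, RGZ, T0070907 and the combination, at most 1 count in each library of experiment 1, and 0 in those of experiment 3, where a count of 0 allows up to 3 counts per library. *DCC* did not pass the filter on low counts.

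**Figure D3:**
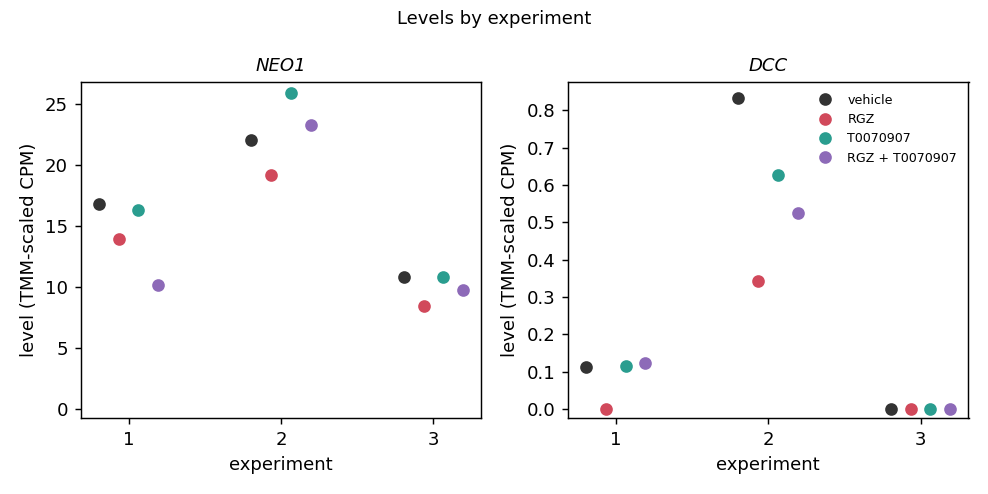
Levels of *NEO1* and *DCC* in TMM-scaled CPM (vertical axes, linear) by experiment (horizontal axis), with 1 point per library coloured by treatment. The *NEO1* libraries of experiment 2 lie between 19.2 and 25.9 CPM, above all others, and *DCC* is at 0 in all libraries of experiment 3.

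Among the ligands, *NTN4*, a netrin of basement membranes (chromosome 12, from 95657807 to 95791152 on the minus strand of GRCh38), was higher with RGZ in the edgeR fit with the experiment as a term. It missed the threshold in edgeR without that term. It had 98, 102 and 77 counts with vehicle, 181, 304 and 208 under RGZ, 61, 123 and 72 under T0070907 and then 74, 143 and 73 with both compounds. The RGZ libraries lay between 18.8 and 34.7 CPM, above every library of the other conditions, which overlapped and reached at most 15.0 CPM. Mean levels were 10.8 ± 1.57 CPM for vehicle, 24.9 ± 8.59 for RGZ, 8.09 ± 2.57 for T0070907 and 10.7 ± 3.84 for the combination (SD, n = 3). The log2 fold change with RGZ was 1.20 (SE 0.30), higher in 3 of 3 experiments, with an edgeR adjusted p of 0.0888, or 5.13e-06 with the experiment as a term (log2 fold change 1.19, SE 0.13). Against RGZ alone, the combination stood at -1.22 (SE 0.30), with edgeR adjusted p-values of 0.0836 and 3.98e-06, and this comparison shares the RGZ libraries with the first. DESeq2 without the experiment as a term called *NTN4* in both comparisons (adjusted p = 0.00799 and 0.00673). In the presence of T0070907 the change with RGZ was 0.40 (SE 0.31) without and 0.40 (SE 0.15) with the experiment as a term, and was not called in either fit (edgeR adjusted p of 0.583 and 0.0913). The interaction was -0.81 (SE 0.43), also not called (adjusted p of 1.00 and 0.121). Per kilobase, *NTN4* with RGZ (6.88 ± 2.38 CPM per kb, n = 3) overlapped *RGMB* (7.08 ± 1.35), while it was below *RGMB* in every library of the other conditions.

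*NTN1*, the netrin best known as the ligand of DCC and UNC5 receptors, was near the limit of what these libraries measure. It had 8, 6 and 12 counts with vehicle, 10, 4 and 12 under RGZ, 13, 13 and 10 under T0070907 and then 9, 5 and 16 with both compounds. The log2 fold change with RGZ was -0.14, and a change within its interval from -1.22 to 0.93 was not detectable at this depth. *NTN1* was called in no comparison.

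For RGZ against vehicle, 2 of the 7 members that passed the filter were called, *UNC5C* and *RGMA*, beside 1.24% of all 13522 genes tested, and nothing is read from this count because it includes the reason for choosing them. With the experiment as a term 3 were called, with *NTN4* added, beside 9.3% of all genes. *UNC5C*, *RGMA* and *NTN4* did not overlap between RGZ and vehicle, and 16.8% of all genes did not. For the combination against RGZ, 1 member (*UNC5C*) was called beside 1.24% of all genes, and 3 (*UNC5C*, *RGMA* and *NTN4*) with the experiment as a term beside 11.4%, and these 3 did not overlap, beside 17.7%. For T0070907 against vehicle, 0 members were called beside 0.0074% of all genes (1 had an unadjusted p under 0.05 in edgeR), and 1, *UNC5C*, with the experiment as a term beside 0.91%. That member also did not overlap, beside 7.67%. The counts against vehicle and against RGZ share libraries with the selection of *UNC5C* and *RGMA*, so nothing is read from them for these 2 genes. For the combination against T0070907, 0 members were called beside 0.037% of all genes (1 member had an unadjusted p under 0.05 in edgeR). With the experiment as a term 1 of 7 members, *UNC5C*, was called beside 8.76% of all genes, and 3 had an unadjusted p under 0.05 in edgeR. *UNC5C* was also the 1 member without overlap there, beside 18.7% of all genes. The interaction called 0 members, 1 at an unadjusted p under 0.05 in edgeR, and 2 of them at that level with the experiment as a term, where 0.281% of all genes were called. The combination against vehicle had 0 calls among the members in both fits, with 0 members at an unadjusted p under 0.05 in edgeR, and 0 calls among all genes, and no member was without overlap, beside 12.2% of all genes. The median log2 fold change of the 7 members in the presence of T0070907 was -0.14, beside -0.01 over all genes. With RGZ alone it was -0.26, a value that includes both genes selected on that comparison and from which nothing is read.

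**Figure D4:**
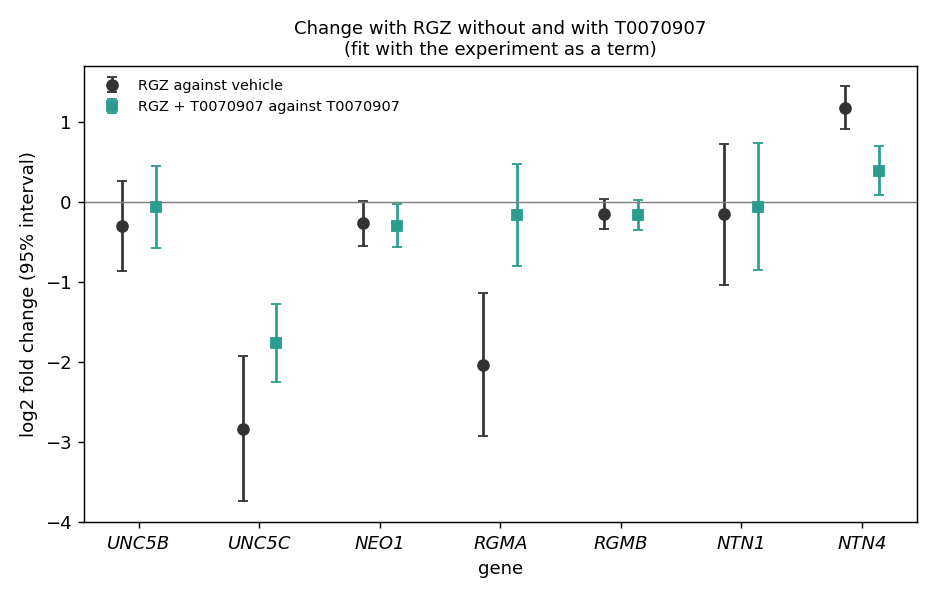
Log2 fold change (vertical axis) of the 7 genes that passed the filter (horizontal axis) for RGZ against vehicle (circles) and for the combination against T0070907 (squares), from the edgeR fit with the experiment as a term; bars are 95% intervals. *UNC5C* is below 0 in both, while *RGMA* is at -0.16 and *NTN4* at 0.40 in the presence of T0070907.

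The windows from 250 bases before to 50 bases after the annotated start sites (RefSeq, GRCh38.p14) were searched on both strands for the nuclear receptor half-site AGGTCA, since a nuclear receptor ligand was added. Windows were found for 7 of the 9 genes, 14 in all, without *UNC5B* and *NTN1*. The half-site was present in 4 of the 14 windows, 1 each of *NTN4*, *RGMA*, *NEO1* and *RGMB*, and in 13.8% of all 35116 windows. A direct repeat of the half-site with 1 base of any kind between its copies was in 0 of the 14 and in 0.0228% of all windows. The 30 bases around each match are shown so that the neighbouring letters can be compared, written 5′ to 3′ on the strand of the gene, with the half-site or its complement TGACCT in capitals.
NTN4 (chr12:95791144-95791173, minus strand): cttggcatgcccTGACCTgatctagaggga
RGMA (chr15:93073976-93074005, minus strand): cagagttaggaaAGGTCAccatactgaagc
NEO1 (chr15:73051697-73051726, plus strand): cttgggagccggAGGTCAgcggctgcgcgg
RGMB (chr5:98768382-98768411, plus strand): aagaagTGACCTccctgagtcaggatactt
In *NTN4* and *RGMA* the match occupied bases -6 to -1 before the start, on opposite strands relative to the gene, and in *NEO1* and *RGMB* it lay at -193 to -188 and -244 to -239. The 250 bases before the same *NTN4* start (chr12:95791156-95791405, minus strand) are shown because *NTN4* is the member that was higher with RGZ, with the same match in capitals at their end.
NTN4: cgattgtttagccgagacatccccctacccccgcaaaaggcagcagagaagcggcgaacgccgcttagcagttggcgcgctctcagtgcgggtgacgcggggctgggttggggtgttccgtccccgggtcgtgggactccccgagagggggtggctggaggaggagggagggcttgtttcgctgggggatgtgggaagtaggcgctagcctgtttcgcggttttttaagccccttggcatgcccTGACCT
The match thus occurred beside a gene that was higher with RGZ, beside *RGMA* that was lower, and beside *NEO1* and *RGMB*, which were not called. A match is a run of letters and no evidence of binding.

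Further ligands and receptors of these families ranged from 0 counts in all libraries (*DSCAM* and *HJV*) to between 214 and 1062 counts per library (*FLRT3*), with *FLRT2* at 26 to 95. Of 12 listed genes (*UNC5D*, *DSCAM*, *DSCAML1*, *NTN3*, *NTN5*, *NTNG1*, *NTNG2*, *HJV*, *FLRT1*, *FLRT2*, *FLRT3* and *LINGO1*), 4 passed the filter and 0 were called in edgeR in any comparison without the experiment as a term (0 at an unadjusted p under 0.05 for RGZ). With that term, 1 of the 4 was called for RGZ against vehicle, for the combination against RGZ and for the combination against T0070907, beside 9.3%, 11.4% and 8.76% of all genes. This gene, *FLRT3*, which encodes a membrane protein that binds UNC5 receptors, was lower with RGZ, by a log2 fold change of -0.48 (SE 0.08, edgeR adjusted p = 3.86e-04). It was also lower in the combination than with T0070907 alone, by -0.37 (SE 0.07, adjusted p = 0.00823), and higher in the combination than with RGZ alone (0.33). *FLRT3* had 54.4, 32.5 and 77.4 CPM with vehicle and 37.8, 24.4 and 55.1 CPM with RGZ in experiments 1, 2 and 3, so the conditions overlapped while RGZ was lower within each experiment.

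All 21 effectors of the netrin and RGM receptors passed the filter, and 0 were called in edgeR in any comparison without the experiment as a term (3 at an unadjusted p under 0.05 for RGZ). Without that term, DESeq2 called *SRC* (adjusted p = 0.0201) and *TIAM1* (0.0382) for RGZ against vehicle and *MAGED1* (0.0466) for the combination against RGZ. With the term, edgeR called 3 of 21 for RGZ against vehicle beside 9.3% of all genes, 4 for the combination against RGZ beside 11.4%, and 3 for the combination against T0070907 beside 8.76%, so nothing particular to the list is read from these counts. *MAGED1*, an adaptor of the UNC5 receptors, was lower (-0.31, SE 0.06) and so was the kinase *SRC* (-0.31, SE 0.06), whereas *TIAM1*, an activator of the GTPase RAC1, was higher (0.54, SE 0.09; edgeR adjusted p of 0.00205, 0.00399 and 3.91e-04). The combination differed from RGZ alone the other way for these 3 genes, and *ROCK2*, a kinase downstream of RHOA, was lower (-0.51, SE 0.13). For the combination against T0070907, *RAC1* (0.20, SE 0.06) and *TIAM1* (0.35, SE 0.09) were higher and *MYO10*, a myosin of filopodia that carries netrin receptors, was lower (-0.30, SE 0.08), with edgeR adjusted p-values of 0.0354, 0.0278 and 0.0367. The median of the 21 genes with RGZ was 0.00, beside -0.01 over all genes.

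Of the 18 genes of the BMP arm, for which RGMs are co-receptors, all passed the filter and 0 were called in edgeR without the experiment as a term (5 at an unadjusted p under 0.05 for RGZ), while DESeq2 without it called *BMP6* for RGZ (adjusted p = 0.0302). With that term, 3 were called higher with RGZ and 0 lower, beside 9.3% of all genes called in either direction. The ligand *BMP6* had 1.14, 0.357 and 1.29 CPM with vehicle and 3.01, 3.54 and 4.16 CPM with RGZ, a log2 fold change of 1.92 (SE 0.32, edgeR adjusted p = 5.09e-04). The ligand *BMP2* had 4.54, 6.43 and 5.41 CPM with vehicle and 8.63, 12.3 and 9.54 CPM with RGZ, a change of 0.90 (SE 0.14, adjusted p = 3.20e-04). For both ligands the RGZ libraries lay above the vehicle libraries, and 16.8% of all genes did not overlap in that comparison. *ID1*, a transcriptional target of BMP signalling, was higher by 0.48 (SE 0.12, edgeR adjusted p = 0.0133). The related *ID2* (mean 3.38 CPM with vehicle and 2.57 with RGZ) and *ID3* (73.4 and 73.6) were not called. Against RGZ alone, the combination was lower in *BMP2* (-0.76) and *BMP6* (-1.30) and higher in the inhibitory *SMAD7* (0.40), beside 11.4% of all genes called. *BMP2* was also higher in the combination than with T0070907 alone (0.69, SE 0.16, edgeR adjusted p = 0.0190), beside 8.76% of all genes called. Nothing particular to the list is read from these counts. The median of the 18 genes with RGZ was -0.06.

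**Figure D5:**
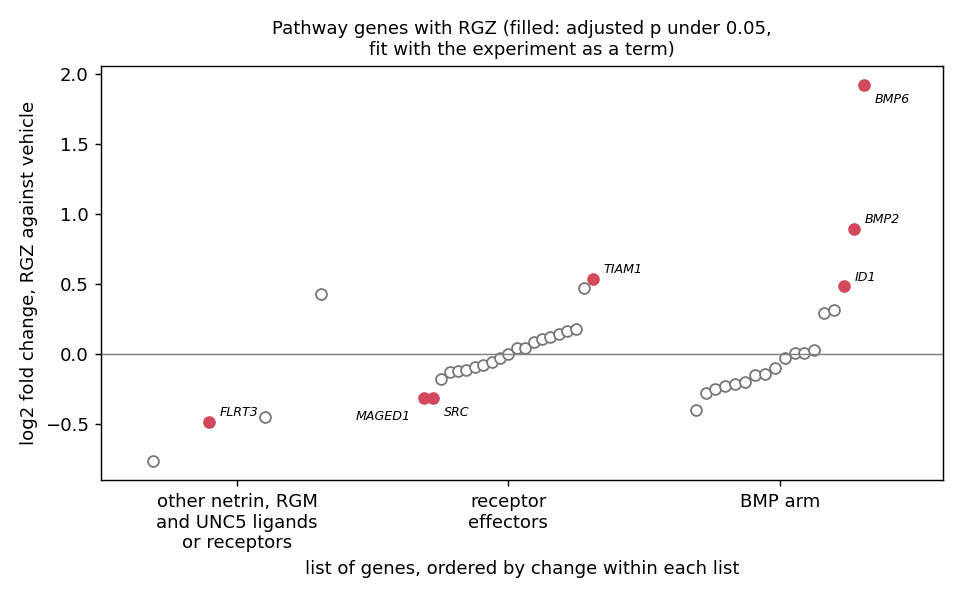
Log2 fold change for RGZ against vehicle (vertical axis) of the listed non-members that passed the filter (horizontal axis: 3 lists, ordered by change within each), from the edgeR fit with the experiment as a term. Filled points passed an adjusted p of 0.05: *FLRT3*, *MAGED1* and *SRC* below 0, and *TIAM1*, *ID1*, *BMP2* and *BMP6* above 0.

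The genes whose levels followed *UNC5C* most closely were *LCTL* (Pearson r = 0.995), *PDE4B* (0.991), *TMX4* (0.984), *ENC1* (0.982) and *PLXNB2* (0.982), over the 12 libraries and after the mean of each experiment was subtracted from the log2 CPM. For *RGMA* they were *TMEM98* (0.972), *SHISA2* (0.963), *RASSF4* (0.959), *MC1R* (0.949) and *DNER* (0.946). Among the members, r with *UNC5C* was 0.833 for *RGMA*, 0.62 for *UNC5B*, 0.593 for *RGMB*, 0.551 for *NEO1*, 0.358 for *NTN1* and -0.927 for *NTN4*. *UNC5C* and *RGMA* were both selected for their fall with RGZ, which by itself makes them correlate. These correlations describe 12 libraries that share 4 treatments and 3 experiments, so they carry no p-value.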

How the data were processed

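The authors deposited raw counts of reads per gene, without normalization, for 12 A375 libraries made with a TruSeq RNA protocol, and RNA of technical replicates had been pooled within an experiment. Their processing notes name the build hg19, and the aligner, counter, annotation and strand setting are not given in the sources used here. Columns were assigned by the labels. In R 4.3.3, counts were filtered (filterByExpr), scaled by TMM and tested with the edgeR 4.0.16 quasi-likelihood test (two-sided, Benjamini-Hochberg over 13522 genes, called at an adjusted p under 0.05) in 1 fit of the 12 libraries by condition. The standard error was taken as the change over the root of its F statistic. The replicate number in the sample titles was taken to mark an experiment shared across conditions, which the titles do not state. Libraries of the same experiment deviated together (mean r = 0.554, over 0.1 in 17 of 18 pairs), but less so in experiment 1. There the combination library had r of 0.0793 with vehicle, 0.162 with T0070907 and 0.194 with RGZ. Because of the shared deviation, values with the experiment as a term are given where they change a call. Lengths and positions came from GENCODE on GRCh38 and start sites from RefSeq. The genes, the lists and the rule for naming genes (members, listed genes called in any comparison, and the 5 genes most like *UNC5C* and *RGMA*) were chosen with earlier results of these data known. Alternatives were DESeq2 1.42.0, limma-voom (limma 3.58.1), other filters, scaling, thinning, thresholds and leaving out each library.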

Additional observations from a re-analysis of the deposited data

How the results depend on the processing

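The number of members called for RGZ against vehicle (2) was 1 with limma-voom and after thinning to the smallest library, and 0 with a minimum of 10 counts in every library (which removes *UNC5C* and *RGMA*), with only the groups compared, or at a threshold of 0.01. For the combination against RGZ (1) it was 3 with the replicate block, the experiment as a term, in edgeR and in limma-voom, 2 with DESeq2, and 0 with limma-voom alone, the minimum of 10 counts, only the groups compared, or 0.01. For T0070907 against vehicle and for the combination against T0070907 (0 each) it was 1 with the block in edgeR and in limma-voom. *UNC5C* in the latter comparison was -1.76 and -1.80 with the block, both called. The block gave 3 for RGZ against vehicle and changed no other count of members. *NTN4* was called by DESeq2 for RGZ against vehicle (adjusted p = 0.00799) and for the combination against RGZ (0.00673).

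Leaving out 1 library gave between 0 and 2 members for RGZ against vehicle and for the combination against RGZ. *UNC5C* lost its call for RGZ without vehicle 1 or 3 or without RGZ 1 or 2 (highest adjusted p 0.0843), and *RGMA* kept it in 3 of 12 fits. *UNC5C* in the combination against T0070907 ranged from -1.96 to -1.56 with 0 of 12 called (adjusted p from 0.0908 to 0.628); with the block, an alternative added after the data were seen, all 12 were called. With the block, *RGMA* in the combination against RGZ lost its call without RGZ 1 (0.0652), and *UNC5C* for T0070907 against vehicle without T0070907 3 (0.0514). *NTN4* in the combination against T0070907, not called, ranged from 0.063 to 0.69. In edgeR without the block, changes of sign among values not called there occurred in *NTN1* with RGZ (-0.41 to 0.17), *RGMA* with T0070907 (-0.21 to 0.34), the combination against vehicle in *UNC5C* (-0.54 to 0.18), *RGMA* (-0.35 to 0.20) and *NTN4* (-0.35 to 0.17), and the combination against T0070907 in *UNC5B* (-0.16 to 0.028), *NEO1* (-0.83 to 0.10), *NTN1* (-0.52 to 0.29) and *MYO10* (-0.74 to 0.049). The causes were not tested. Of 1218 alternative values, 1079 were classed as the same, a class that also takes in small changes in the count of members. It also holds values not called in either fit. *UNC5C* was weaker in 7 of 21 alternatives for RGZ against vehicle and in 11 of 21 for the combination against RGZ. *RGMA* was weaker in 11 of 20 for RGZ against vehicle. Depth limits *UNC5C* and *RGMA* with RGZ (9 and 11 counts in 3 libraries) and *NTN1*, *DCC* and *UNC5A* throughout.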
